A study of Mus musculus with 4 samples.

Results

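The transcripts of the 3 mouse eIF4A helicase genes, Eif4a1, Eif4a2 and Eif4a3, were examined for peaks of eIF4A2 binding. A peak was assigned to a gene when its midpoint lay in a fixed mm9 window on the strand of that gene. The genes and windows were chosen with earlier results of these data known, among them the high median of the Eif4a1 block. Within that choice, the rule used position and strand only, and not the fold. It found 28 of the 47777 deposited peaks, with 21 in Eif4a1, 3 in Eif4a2 and 4 in Eif4a3. The windows were chromosome 11, minus strand, 69480000 to 69486300 for Eif4a1, chromosome 16, plus strand, 23105000 to 23116000 for Eif4a2, and chromosome 11, minus strand, 119148000 to 119163000 for Eif4a3. The gene in each window was taken from the rule, because no mm9 annotation was used here. Peaks are therefore not placed on exons, introns or UTRs.

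The peaks came from eCLIP of J1 mouse embryonic stem cells of the 129S4/SvJae strain, a single cell line grown without feeders in serum and leukemia inhibitory factor. All cells were irradiated with ultraviolet light of 254 nm at 400 mJ/cm2, which links proteins to the RNA they touch. The 2 IP libraries hold RNA recovered with an antibody against eIF4A2, and the 2 input libraries hold the RNA that serves as background; no other treatment or genotype separates the groups in the labels. The authors deposited 1 list for the 4 libraries, with 1 IP-over-input value per peak on the log2 scale, so no value per library, replicate spread or depth can be given, and no difference below was tested. The list holds no expression values, so the labelled cell type could not be checked against markers, and libraries from cells without eIF4A2 were not analysed here.

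The eIF4A proteins are DEAD-box RNA helicases, which use ATP to unwind RNA. eIF4A1 and eIF4A2 are close paralogs that can each join the cap-binding scaffold eIF4G in the eIF4F complex, which prepares mRNAs for the ribosome, and eIF4A2 has also been studied for its contact with the CCR4-NOT deadenylase complex. eIF4A3 is a nuclear paralog and a core subunit of the exon junction complex, which splicing leaves on mRNAs.

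The coding stretch around the DEAD-box motif is shown for the 3 genes because reads can be told apart between paralogs only where the transcripts differ. Capitals mark the 12 bases of the motif, which was found in frame 1 time in each coding sequence, on the transcript strand. The sequences are those of the GENCODE M21 transcripts (GRCm38), 5′ to 3′.
Eif4a1: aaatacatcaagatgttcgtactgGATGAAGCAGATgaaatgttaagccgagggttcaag
Eif4a2: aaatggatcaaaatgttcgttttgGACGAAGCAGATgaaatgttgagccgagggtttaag
Eif4a3: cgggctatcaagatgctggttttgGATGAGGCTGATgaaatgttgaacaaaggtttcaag

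In these 60 bases, Eif4a1 and Eif4a2 were identical at 52 positions, and each was identical to Eif4a3 at 43. Over the whole coding sequence, Eif4a1 and Eif4a2 matched at 77.8% of 1218 aligned bases. Eif4a3 matched Eif4a1 at 67.9% and Eif4a2 at 67.2%. The longest identical run was 20 bases between Eif4a1 and Eif4a2, and 23 bases between Eif4a3 and each of them. None of the 1725 words of 50 bases in the Eif4a1 mRNA occurred in the Eif4a2 or the Eif4a3 mRNA (0 shared words in each pair). The word length is the read length given in the labels. This count covers 1 principal spliced transcript per gene, and no introns or pseudogenes. It counts exact matches of the full 50 bases only, so reads shortened by trimming and reads aligned with mismatches are not covered.

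The Eif4a1 window held high folds in a compact block, deposited as 21 peaks that covered 1032 bases, whereas the transcript of eIF4A2 itself held low folds in 3 peaks that covered 46 bases. The median log2 fold was 3.66 (12.6-fold) in Eif4a1, with quartiles of 2.998 and 3.87. It was 1.48 (2.79-fold) in Eif4a2 and 1.39 (2.62-fold) in Eif4a3, against 1.65 (3.15-fold) over all 47777 peaks. The lowest Eif4a1 peak, at 1.98, lay above the highest of Eif4a2, at 1.62, and of Eif4a3, at 1.82. The values of Eif4a1 thus did not overlap those of its paralogs. That lowest peak also lay above 71.2% of all peaks, so most of the list lay below every Eif4a1 peak. Eif4a2 and Eif4a3 overlapped each other, with medians 0.09 apart on the log2 scale. The number of peaks depended on how the block was divided. With peaks within 50 bases merged, 2 peaks were left in Eif4a1 (median log2 fold 2.99), 2 in Eif4a2 (1.39) and 4 in Eif4a3 (1.39). Eif4a1 thus no longer had the most peaks. Its merged folds had to stay above those of its paralogs, because merging averages peaks whose values did not overlap. Counts below are of peaks as deposited. The peaks of 1 gene share a transcript and are not replicates. The folds carry no error, and the list holds only folds above 2.

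**Figure D1:**
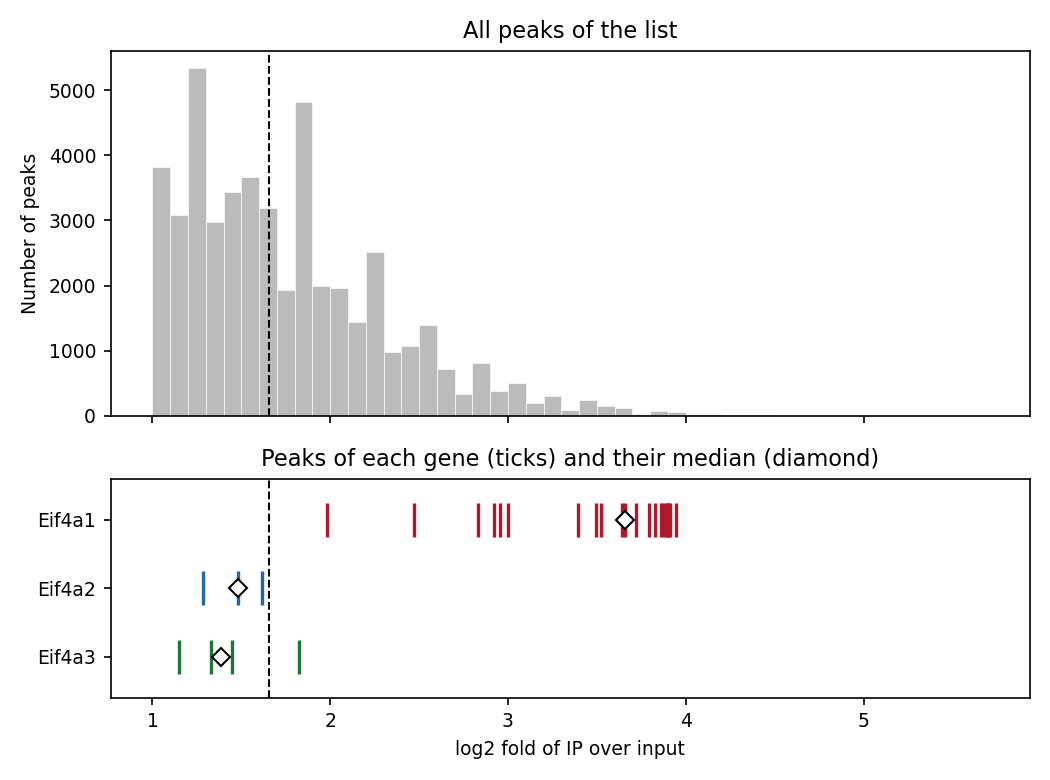
Upper panel, number of deposited peaks (y axis) by log2 fold of IP over input (x axis). Lower panel, each peak of Eif4a1, Eif4a2 and Eif4a3 as a tick on the same axis, with the median as a diamond; the dashed line is the median of all peaks, 1.65. The 21 Eif4a1 ticks lie between 1.98 and 3.95, and the ticks of the other genes between 1.15 and 1.82.

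Of the 21 Eif4a1 peaks, 20 had an enrichment of 4-fold or more (log2 of 2), against a background of 28.3% of all peaks. At 8-fold or more (log2 of 3) were 15 of the 21, against 4.03%. Neither limit was reached by any of the 3 Eif4a2 peaks or the 4 Eif4a3 peaks. Of the 21 Eif4a1 peaks, 13 lay between 3.5 and 4 on the log2 scale, a range that held 0.921% of the list. No Eif4a1 peak reached 4, which 145 peaks elsewhere in the list did. The Eif4a1 peaks were thus high as a group, and the extreme single folds of the list lay elsewhere.

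Eif4a1 encodes the main eIF4A of most proliferating cells, and its peaks occupied 1.25 kb of the window of 6301 bases, from 69484505 to 69485752. They covered 1032 bases, or 82.7% of that span, and 15 of the 20 neighbouring pairs touched end to end. The remaining 5 gaps were 17 to 94 bases. The block lay toward the 5′ side of the window: 548 bases of the window lay 5′ of it and 4505 bases lay 3′ of it without a peak. No peak lay on the opposite strand of the window (0 peaks).

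The fold was not even along the block. The most 5′ peak, at 69485687 to 69485752, had a log2 fold of 2.83. After a gap of 37 bases came 12 peaks that touched each other over 472 bases, from 69485649 down to 69485178. From 5′ to 3′ their log2 folds were 3.39, 3.497, 3.83, 3.72, 3.64, 3.89, 3.87, 3.91, 3.52, 3.66, 3.79 and 3.90. These 12 peaks differed by at most 1.43-fold among themselves.

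The next segment, 49 bases further on, was lower. Its 2 peaks covered 233 bases with log2 folds of 2.96 and 2.998, and included the widest peak of the gene, 141 bases at 69484988 to 69485128. The fold then returned to the level of the first long run. The 3 touching peaks that followed had log2 folds of 3.95, 3.90 and 3.86 over 137 bases. Beyond the largest gap, of 94 bases, the fold was lower again, with 1.98 and 2.92 in a touching pair and 2.47 in the most 3′ peak, at 69484505 to 69484574. The peaks thus formed 2 high segments, separated by a lower one and flanked by lower folds on both sides.

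**Figure D2:**
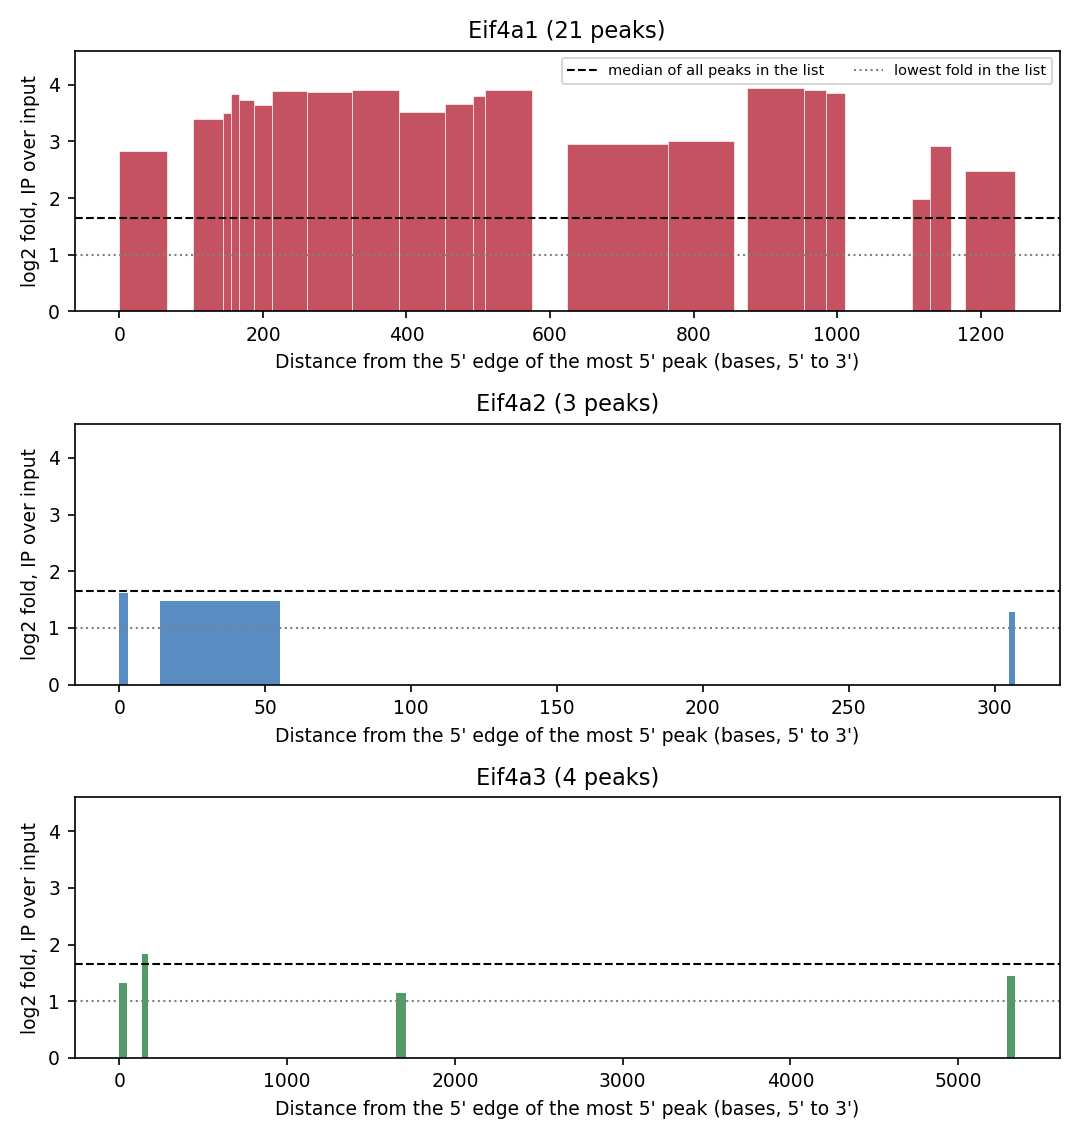
Log2 fold of IP over input (y axis) of each peak against the distance in bases from the 5′ edge of the most 5′ peak of the gene (x axis, a different scale in each panel); each bar spans 1 peak, the dashed line is the median of all peaks and the dotted line is the lowest fold in the list. In Eif4a1 a run of 12 touching peaks between 3.39 and 3.91 is followed by a lower segment near 3 and a second high segment up to 3.95, whereas the Eif4a2 and Eif4a3 peaks do not touch and lie between 1.15 and 1.82.

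The 3 highest peaks of Eif4a1 lay in both high segments. The highest, at 69484799 to 69484878, had a log2 fold of 3.95 (15.4-fold), above 99.7% of the list. The next, at 69485363 to 69485428, had 3.91 (15.1-fold). The third, at 69484769 to 69484798, had 3.90 (14.9-fold). The difference between these 3 was 1.03-fold at most, and their order has no error to be judged by.

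In a list joined into stretches (chains of peaks on 1 strand with gaps of up to 1000 bases), 172 stretches held 10 or more peaks, and the Eif4a1 block ranked 1 by median fold. The median of these stretch medians was 1.85, and the next 2 stretches were on chromosome 11, minus strand, 117827769 to 117830454, with a median of 3.01, and on chromosome 19, plus strand, 45089831 to 45093431, with a median of 2.93. The Eif4a1 block was also dense. Its covered share of 82.7% ranked 4 of 172, against 22.3% and 14.7% in those 2 stretches and a median of 22.2% over the 172. It held 15 peaks at 8-fold or more, and no other of the 172 held more than 9. These counts and the limit of 10 peaks rest on peaks as deposited. With peaks within 50 bases merged, Eif4a1 had 2 peaks with a median of 2.99, too few for that limit, and the other stretches were not remade. The high median of the block was known when the gene was chosen, so its rank is a description only.

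**Figure D3:**
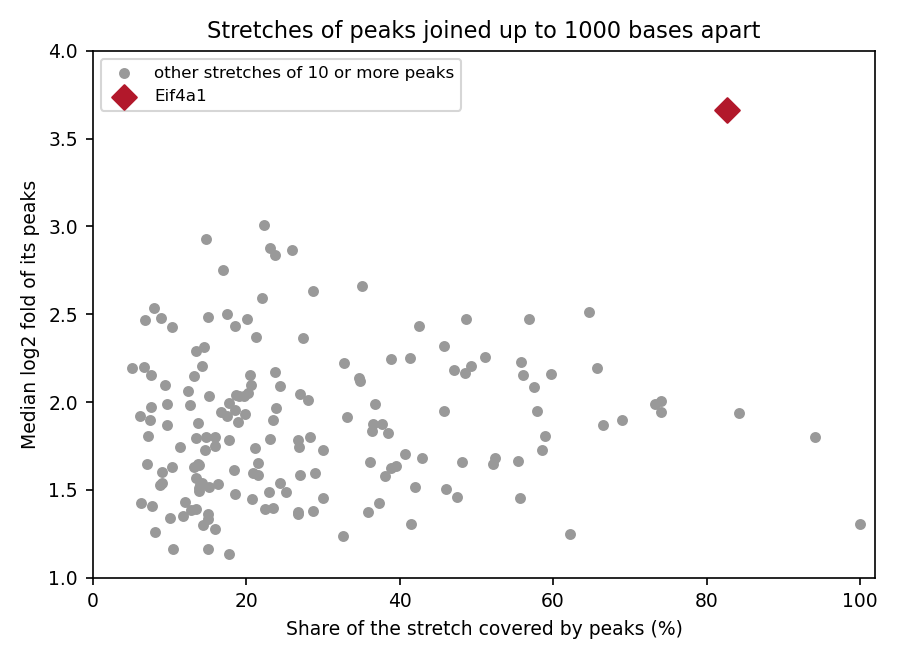
Median log2 fold of IP over input (y axis) against the share of the stretch covered by peaks in percent (x axis) for the 172 stretches of 10 or more peaks, counted as deposited; the diamond is Eif4a1. Eif4a1 lies at 82.7% and 3.66, and the highest of the other stretches lies at 3.01.

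As deposited, a number of peaks as high as that of Eif4a1 was rare in windows of its length, but this rested on the division of the block into touching peaks. When both strands of the genome were divided into tiles of 6301 bases, 26846 tiles held a peak, and 13 of them (0.0484%) held at least 21. Only 1 of those tiles, the one that holds Eif4a1 itself, also had a median as high. For Eif4a2, 21.9% of the occupied tiles of 11001 bases held at least 3 peaks. For Eif4a3, 14.8% of the occupied tiles of 15001 bases held at least 4. With peaks within 50 bases merged, a comparison added after the values were seen, 32.6% of the occupied tiles held at least the 2 peaks of Eif4a1, 40.2% the 2 of Eif4a2 and 12.02% the 4 of Eif4a3.

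Around Eif4a1, the high folds ended with the block. The nearest peak on the same strand in the 3′ direction was 5001 bases away, at 69479459 to 69479503, just outside the window, with a log2 fold of 1.09. The most 3′ peak inside the window had 2.47. The nearest in the 5′ direction was 7966 bases away with a log2 fold of 1.78. Within 15000 bases of the window, 16 further peaks lay on the same strand, with a median log2 fold of 1.24 and a maximum of 2.56. The genes under these neighbours were not identified here. Eif4a2 and Eif4a3 had 0 further peaks on their strand within 15000 bases, and their nearest neighbours were 117 kb and 66.1 kb away.

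Lengths of the gene models were compared with the lengths of the peak blocks, without placing peaks, because the annotation was of another build. In GENCODE M21 (GRCm38), Eif4a1 (ENSMUSG00000059796.16) is 5488 bases long, with 11 exons and 10 introns in its principal transcript. The span of the peaks, 1248 bases, equalled 22.7% of the gene length. The longest exon of that transcript, exon 11, has 682 bases and the longest internal exon has 169. The run of 472 touching bases was thus longer than any of its internal exons. Of its introns, only intron 1, with 1302 bases, is as long as the span, and the next has 886. Among all 13 annotated Eif4a1 transcripts the longest exon has 1670 bases, in a retained-intron transcript, where it covers introns 3 and 4. Which of these elements the peaks lie in, and whether the block crosses several of them, was not determined.

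The Eif4a2 transcript, which encodes the protein targeted by the antibody, carried 3 peaks within 307 bases. They lay at 23108190 to 23108192 with a log2 fold of 1.62 (3.07-fold), at 23108204 to 23108244 with 1.48 (2.79-fold), and at 23108495 to 23108496 with 1.29 (2.44-fold). All 3 were below the median of the list, and they stood at the 47.4, 38.1 and 24.9 percentiles. In this gene the fold was lowest in the most 3′ peak. The first 2 lay 11 bases apart, and a gap of 250 bases separated them from the third.

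Of the Eif4a2 peaks, 2 were very short. From 5′ to 3′ the widths were 3, 41 and 2 bases, against a median of 32 over the list and 42 in Eif4a1, and they covered 46 bases together, 22.4 times fewer than those of Eif4a1. Widths of 3 bases or less occurred in 1.11% of the list. No peak lay in the 7504 bases of the window beyond the most 3′ one. The gene model, ENSMUSG00000022884.15, is 6693 bases long in GRCm38, longer than that of Eif4a1. Per kb of gene length, Eif4a2 had 0.448 peaks and Eif4a1 had 3.83 as deposited; with peaks within 50 bases merged, the values were 0.299 and 0.364.

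Eif4a3, the exon junction complex member, carried 4 peaks that were spread over 5.34 kb. From 5′ to 3′ they lay at 119161196 to 119161239 with a log2 fold of 1.33, at 119161072 to 119161105 with 1.82, at 119159529 to 119159590 with 1.15, and at 119155901 to 119155948 with 1.45. Only the second, the narrowest at 34 bases, was above the median of the list, at the 57.6 percentile. The widest, with 62 bases, had the lowest fold, 2.21-fold, near the 2-fold limit of the list.

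The 4 Eif4a3 peaks formed 3 stretches, with gaps of 90, 1481 and 3580 bases, and none touched another. Its gene model, ENSMUSG00000025580.15, is the longest of the 3 in GRCm38 with 11727 bases, and it had 0.341 peaks per kb of gene length, both as deposited and merged. The covered share of gene length does not depend on how touching peaks are divided, although merging across gaps can raise it. As deposited, it was 18.8% in Eif4a1, 0.687% in Eif4a2 and 1.603% in Eif4a3, so Eif4a1 stood above both paralogs. The order of Eif4a2 and Eif4a3 depended on the measure: Eif4a2 had more deposited peaks per kb of gene length and Eif4a3 had the larger covered share.

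Small nucleolar RNA (snoRNA) genes lie inside 2 of these genes. GENCODE M21 places 3 snoRNA genes on the strand of Eif4a1 within its borders, 5 within Eif4a2 (among them Snord2 and Snora81) and 0 within Eif4a3. snoRNAs are processed from introns and guide the modification of other RNAs. Because peaks were not placed on introns, host transcript and snoRNA cannot be told apart under a peak here.

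The folds recurred at ratios of whole numbers. After 1 constant (0.24 on the log2 scale) was subtracted, 99.99% of all folds and all 28 of these equalled the log2 of a ratio of whole numbers with an input number of up to 300 (relative tolerance 2e-09). The constant was set by reading the commonest value as 2 to 1, and is known only up to such a ratio. The smallest pair of whole numbers is not the read count, which can be any multiple of it. For Eif4a1 the sum of the smallest pair ranged from 55 to 816, with a median of 396, whereas the median over the list was 17. The first of the 12 touching peaks, for example, was at 614 to 69, and the highest fold of the gene was at 209 to 16.

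No Eif4a1 or Eif4a2 peak had an input number of 1 (0 peaks), which 27.8% of the list had. The Eif4a2 peaks were at 13 to 5, 26 to 11 and 126 to 61. In Eif4a3 the peak with the highest fold was at 3 to 1, the ratio of 3878 peaks of the list, and the others were at 17 to 8, 15 to 8 and 37 to 16. In the whole list, 110 peaks had a pair sum of at least 396, a limit set at the Eif4a1 median, and their median log2 fold was 1.63. Of these 110, 12 reached a log2 fold of 3, and 9 of the 12 lay in Eif4a1. Because the limit was their own median, 11 of the 21 Eif4a1 peaks reached it by construction. The share of Eif4a1 among the 110 and the 12 is therefore a description only.

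**Figure D4:**
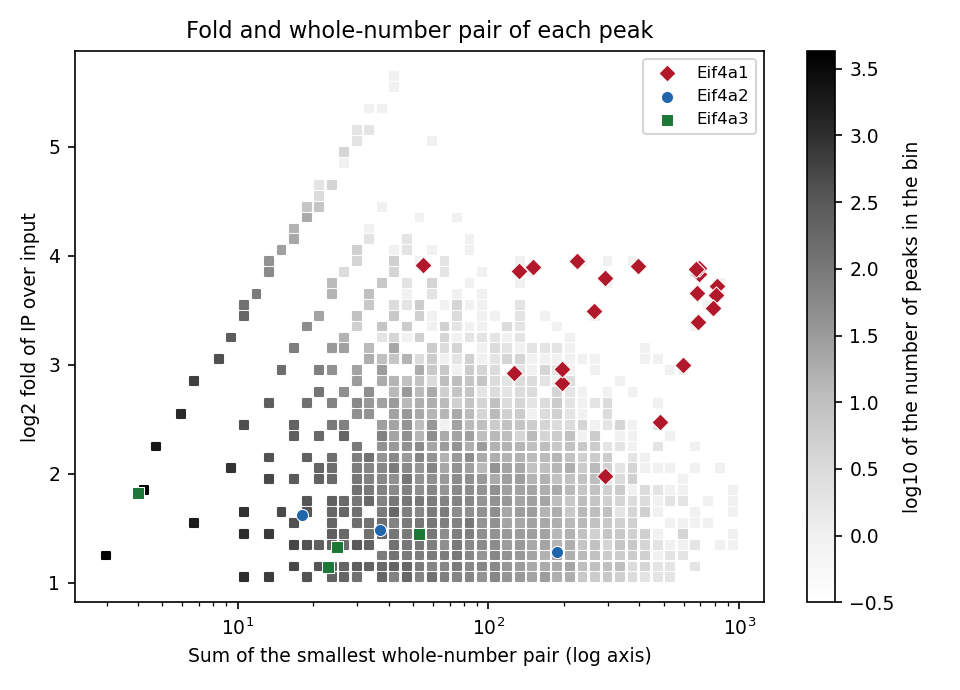
Log2 fold of IP over input (y axis) against the sum of the smallest whole-number pair of each peak (x axis, log scale); grey squares are bins of all peaks, darker where the bin holds more, and coloured points are the peaks of the 3 genes. The Eif4a1 points lie at sums of 55 to 816 and mostly above a log2 fold of 3, apart from the bulk of the list. The other genes lie at lower folds, with sums of 18 to 187 in Eif4a2 and 4 to 53 in Eif4a3, so the sums of Eif4a2 overlap those of Eif4a1.

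The Eif4a1 peaks came first in the deposited list on their strand. Peak names are numbered by chromosome and strand, and the first 19 of the 2204 names on the minus strand of chromosome 11 were all Eif4a1 peaks. Its remaining 2 peaks stood at places 22 and 35. The Eif4a2 peaks stood at places 9, 36 and 54 of 836 on the plus strand of chromosome 16, although their folds were below the median. The Eif4a3 peaks stood at places 697, 769, 957 and 1249 of the same 2204. No source used here states what the order is based on. Spearman correlations with place were taken in each of the 40 chromosome strands with at least 100 peaks. Their medians were -0.69 for pair sum, -0.47 for width and -0.36 for fold. They are a description over peaks of 1 list that share libraries. Earlier places thus went with larger pairs, and with wider peaks, more than with higher folds.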

How the data were processed

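eCLIP was measured in 4 libraries of J1 cells, 2 IP and 2 input, grouped by their titles. The submitters' processing notes name STAR 2.6.1b, cutadapt 1.18 and mm9. How peaks were called and filtered, and how replicates were joined, is not given in the sources that were used. The authors deposited 1 peak list whose measurement is the log2 fold (IP over input); the scale was read from the values, all of which were above 1. Depth is unknown and the list holds no counts, so no test, error or paired fit was possible.

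Starts were changed to count from 1. Peaks were assigned by midpoint and strand. Stretches joined peaks up to 1000 bases apart. Whole-number pairs were sought with input numbers up to 300. On a simulated list of 47777 peaks the procedure recovered 100% of the pairs, and 0.0858% of random values were given one. The simulation was given its constant, and its input numbers stayed well below 300. It therefore did not check how the constant was set in the data. Coding sequences were aligned globally with Biopython 1.88. Analyses used Python 3.11.15, numpy 2.4.6, pandas 2.3.3 and scipy 1.17.1.

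The members, windows and measures were chosen with earlier results of these data known, among them the high median of the Eif4a1 block. The rule for named peaks took, in each gene, the 3 highest folds, the most 5′, the most 3′ and the widest, or all where there were 5 or fewer, and the next 2 stretches by median fold. The tiles, pairs, list order and lengths of gene models were added after the values were seen. Alternatives were another window edge, a log2 fold of at least 2, merging within 50 bases, a width of at least 20 bases, the opposite strand and weighting by width. GRCm38 annotation was used for lengths, names and transcript sequences only, and no coordinates were converted.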

Additional observations from a re-analysis of the deposited data

How the results depend on the processing

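Of 34 alternative values, 25 stayed within 1.5 times the count or within 0.1 of the median log2 fold. That range was set here because no replicate spread exists. Counts on the opposite strand were classed as outside it in advance, and medians without peaks were left out. The tally is therefore not a measure of stability. Merging peaks within 50 bases left 2 peaks in Eif4a1 with a median of 2.99, 2 in Eif4a2 and 4 in Eif4a3, so that Eif4a1 no longer had the most peaks. Weighting by width gave a mean of 3.38 in Eif4a1. A log2 fold of at least 2 left 0 peaks in Eif4a2 and 0 in Eif4a3, so no median could be had there. A width of at least 20 bases left 1 peak in Eif4a2. The opposite strand held 0 peaks in each of the 3 windows. In each alternative that gave a median in all 3 genes, that of Eif4a1 was above those of Eif4a2 and Eif4a3. Filtering, merging and weighting could not reverse this order, because every Eif4a1 peak lay above every peak of its paralogs. Only the widened window could add peaks, and it gave 22 in Eif4a1 with a median of 3.65. No paired analysis was possible because each peak has a single value for the 4 libraries; nor could a replicate be left out. With no depth given, its effect on these counts is not known.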
